A study of Mus musculus with 20 samples.

Results

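The Hox genes are the homeobox genes of the Hoxa, Hoxb, Hoxc and Hoxd clusters, numbered from paralog group 1 to 13. Members were all genes of the array whose annotated symbol is Hox, a cluster letter and a number, and each was read by the probe set whose mean log2(intensity + 16) over the 20 arrays was highest. Of 39 such genes in the mouse gene table, 33 were measured by at least 1 probe set of a single gene, among 18193 genes measured in all. The others were not analysed here. 20 of the 33 were bright enough to be tested, in that they exceeded the 40th percentile of all probe sets (called the floor here) on at least 2 arrays. By cluster, 7 of 9 measured Hoxa genes were tested, 4 of 9 Hoxb, 6 of 7 Hoxc and 3 of 8 Hoxd.

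Hox proteins are homeodomain transcription factors that give cells of the trunk and hindbrain their position along the head-to-tail axis. Genes at the low-numbered end of a cluster are switched on first and furthest forward, genes at the high-numbered end later and further back, and tissues in front of the hindbrain keep the clusters silent. Neurons and neural crest derivatives, sympathetic ganglia among them, usually keep the Hox code of the axial level at which they arose, and Hox proteins bind DNA together with cofactors of the Meis, Pbx and Pknox families.

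The samples came from mice carrying a MYCN transgene, a model of neuroblastoma (a childhood tumor of the sympathetic nervous system), and from wild-type mice. They were 4 ganglia of wild-type mice, 2 ganglia and 4 tumors of transgene homozygotes, 2 tumors of homozygotes that also lacked Mdk (the gene of the growth factor midkine), 4 tumors of hemizygotes, 2 wild-type neurosphere cultures (floating aggregates of neural stem and progenitor cells) and 2 hemizygous tumorsphere cultures (floating aggregates grown from tumor). Wild-type mice were on a 129+Ter/SvJcl background and all transgenic mice on a mixed 129+Ter/SvJcl background, so transgene and background cannot be told apart. The ages, the promoter of the transgene, the kind of ganglion, and the tissue from which the neurospheres were grown are not given in the sources used here. Nor do they say if the replicates of one group are separate animals or cultures, so every p-value measures the spread between these samples, and the small number of arrays limits the precision.

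Checks over the whole series were as follows. All 11 measured sympathetic neuron markers (Th, Dbh and others) exceeded the floor on at least 1 array of each kind of ganglion, each kind of tumor and the tumorspheres, where their summed intensity was 5370 to 36100. In the neurospheres it was 82.8 and 110, with 7 of 11 below the floor on both arrays, while the 8 neural stem cell markers summed to 9040 and 9830 there and to at most 1710 elsewhere. Mdk read 42.6 and 35.5 in the 2 Mdk knockout tumors and 268 to 297 in the 4 homozygous tumors (log2 difference -2.41 ± 0.29 (SE), limma adjusted p = 0.0017). The 3′ to 5′ signal ratio of the actin control, which rises as RNA degrades, was 4.36 to 9.14 in wild-type ganglia, 4.02 to 4.68 in homozygous ganglia, 3.78 and 7.77 in neurospheres and 1.96 to 3.28 in tumors and tumorspheres. The same ratio of the Gapdh control was 11.5 in neurosphere 2 and 2.56 to 4.49 on the other 19 arrays. Summed Schwann cell and satellite glia markers were 7460 to 11100 in ganglia and 853 to 1360 in tumors, and fibroblast markers 16400 to 21600 and 2600 to 6860. No array repeated another: the highest correlation between 2 arrays was 0.992 and at most 0.0022% of their values were identical.

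The upstream sequences of 3 genes on which the results turn are printed here, Hoxc4, Hoxd8 and Hoxd9, because these were among the Hox genes that were higher in tumorspheres than in neurospheres. Each run is the 250 bases before the annotated start in the direction of the gene, 5′ to 3′, from RefSeq's table on build GRCm38.p6. They lie on the + strand at chr15:103034145-103034394 (Hoxc4), chr2:74704365-74704614 (Hoxd8) and chr2:74697513-74697762 (Hoxd9). Capitals mark a match to the nuclear receptor half-site AGGTCA on either strand.
Hoxc4: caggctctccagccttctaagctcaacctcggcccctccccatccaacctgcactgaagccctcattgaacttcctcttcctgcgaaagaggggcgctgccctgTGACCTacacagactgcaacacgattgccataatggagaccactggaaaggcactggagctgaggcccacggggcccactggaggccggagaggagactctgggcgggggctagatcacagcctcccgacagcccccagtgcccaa
Hoxd8: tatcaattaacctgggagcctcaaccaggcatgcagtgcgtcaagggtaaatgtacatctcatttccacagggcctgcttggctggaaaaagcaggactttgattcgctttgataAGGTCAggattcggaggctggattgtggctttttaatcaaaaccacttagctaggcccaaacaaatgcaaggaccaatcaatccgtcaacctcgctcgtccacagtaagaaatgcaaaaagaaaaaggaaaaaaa
Hoxd9: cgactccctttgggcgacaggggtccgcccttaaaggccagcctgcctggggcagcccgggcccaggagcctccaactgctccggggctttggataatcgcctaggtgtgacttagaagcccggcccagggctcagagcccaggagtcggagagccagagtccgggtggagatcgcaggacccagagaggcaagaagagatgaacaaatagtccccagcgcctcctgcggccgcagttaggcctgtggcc
22 Hox genes had an upstream sequence in that table. Their median GC content was 56.8%, against 52% over the 27025 genes of the table, and their median number of CpG dinucleotides was 12 against 6. 5 motifs were searched on both strands. AGGTCA stood in 6 of the 22 Hox sequences and in 13.8% of all, TTTATG (a caudal-type site) in 5 and 11.1%, CACGTG (an E-box) in 3 and 6.05%, TGATNNAT (a Hox and Pbx composite site) in 3 and 7.91%, and TAATTA (a homeodomain site) in 1 and 4.9%. In Hoxc4 the match began 146 bases before the start and in Hoxd8 135 bases before it, and the Hoxd9 run held no match to any of the 5. A match is only a run of letters in this window.

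Counted array by array, genes of paralog groups 4 to 8 were the largest class above the floor on every array except neurosphere 2. Ganglia had 11 to 16 of the 33 genes above the floor, tumors 9 to 16, tumorspheres 10 and neurospheres 5, where the floor stood at an intensity of 8.58 to 15.8 and 65.9% to 71.9% of all genes exceeded it. The higher mark of the 60th percentile, an intensity of 28.4 to 37.5, leaves the clearly lit genes. Of all genes, 49.9% to 56.2% exceeded it. At that mark wild-type ganglia kept 7 to 9 Hox genes, homozygous ganglia 8, homozygous tumors 8 to 10, Mdk knockout tumors 7, hemizygous tumors 6 or 7 and tumorspheres 5, and each neurosphere culture kept 1. Hoxa5, Hoxc4, Hoxc8 and Hoxd8 were above this mark on every ganglion, tumor and tumorsphere array. The tumorspheres kept those 4 and Hoxd9, and the neurospheres kept Hoxa5 only. These counts use the chosen probe sets, and the other Hoxa5 probe set was below the floor on every neurosphere and tumorsphere array. Of the 14 measured genes of paralog groups 9 to 13, only Hoxa9, Hoxc9 and Hoxd9 reached the mark on any array. The 13 genes that were not tested included 5 of the 8 measured Hoxd genes (Hoxd1, Hoxd10, Hoxd11, Hoxd12 and Hoxd13) and 5 of the 9 Hoxb genes (Hoxb1, Hoxb4, Hoxb5, Hoxb9 and Hoxb13). The remaining 3 were Hoxa4, Hoxa7 and Hoxc13. Another 6 were tested and passed in none of the 10 comparisons described here (Hoxa3, Hoxa10, Hoxa11, Hoxa13, Hoxb2 and Hoxb7), and none of these reached the higher mark on any array. Hoxb2 read 0.345 to 30.3.

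**Figure D1:**
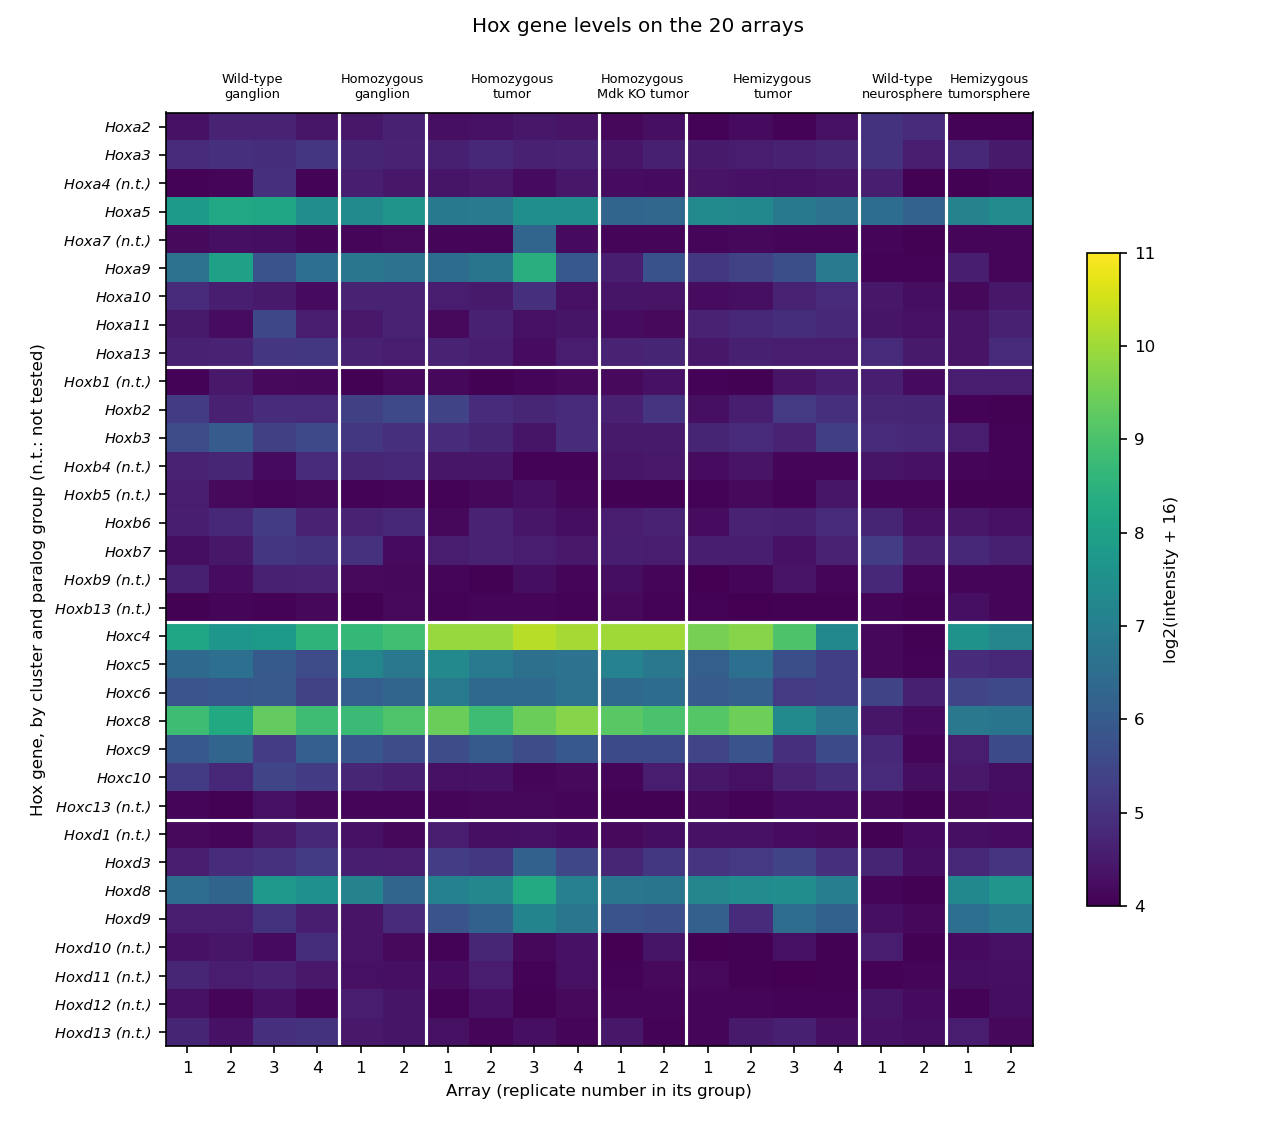
Colour gives log2(intensity + 16) of the 33 measured Hox genes (rows, by cluster and paralog group) on the 20 arrays (columns, by group and replicate number); n.t. marks the 13 genes not tested. Hoxa5, Hoxc4, Hoxc8 and Hoxd8 are bright in ganglia, tumors and tumorspheres, and the neurosphere columns are dark except at Hoxa5. Each row shows the chosen probe set, and the other Hoxa5 probe set was below the floor in neurospheres and tumorspheres. Colours of different rows come from different probe sets and do not rank the genes.

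Among the genes of paralog groups 4 to 8, Hoxc4 had the widest range of all measured Hox genes, 6.2 on the log2(intensity + 16) scale. Its intensity was 260, 187, 208 and 360 in wild-type ganglia 1 to 4 and 390 and 457 in the homozygous ganglia. It was 951, 953, 1190 and 1050 in homozygous tumors 1 to 4, 1010 and 1010 in the Mdk knockout tumors, and 745, 825, 511 and 139 in hemizygous tumors 1 to 4. The homozygous tumors all lay above every ganglion, whereas hemizygous tumor 4 lay below the lowest ganglion. Tumorspheres read 176 and 130, below the range of wild-type ganglia, and neurospheres 1.83 and 0.381, below the floor.

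Hoxc8, whose product helps set brachial and thoracic identity in motor neurons, read 436, 286, 622 and 438 in wild-type ganglia and 417 and 520 in homozygous ganglia. Its values were 668, 434, 677 and 826 in homozygous tumors, 580 and 492 in Mdk knockout tumors, and 559, 681, 146 and 91.7 in hemizygous tumors. Ganglia and homozygous tumors overlapped, and hemizygous tumors 3 and 4 stood below all of them. Tumorspheres read 95.2 and 88.6, at the level of hemizygous tumor 4, and neurospheres 5.35 and 2.3. Hoxc4, Hoxc5, Hoxc6 and Hoxc8 were each lower in hemizygous tumors 3 and 4 than in hemizygous tumors 1 and 2, and these 4 genes lie side by side in their cluster. Hemizygous tumor 4 also had a summed kidney marker level of 549, against 35.3 to 133 on the other 19 arrays. Hemizygous tumor 3 had a skeletal muscle sum of 6990, against 87.5 to 115 in the other hemizygous tumors. Muscle sums were also high in wild-type ganglia 1 and 2 (6190 and 5000) and homozygous ganglion 2 (6860). Mdk knockout tumor 2 had 3430 and homozygous tumor 2 had 1330. The part of the kidney or muscle signal in the Hoxc values was not tested.

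Hoxd8 followed another order. It read 74, 59.7, 195 and 167 in wild-type ganglia, 123 and 62 in homozygous ganglia, and 118, 135, 294 and 117 in homozygous tumors. The Mdk knockout tumors had 91 and 90, the hemizygous tumors 130, 151, 157 and 112, and the tumorspheres 138 and 185. The range of wild-type ganglia overlapped each of these groups, and the Mdk knockout tumors lay below all other tumors and the tumorspheres. Neurospheres read 1.45 and 0.484. A further probe set of Hoxd8 was also low in neurospheres, at 8.06 and 6.27 against 64.1 to 179 on the 18 other arrays, but there the Mdk knockout tumors, at 64.1 and 114, overlapped the other tumors.

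**Figure D2:**
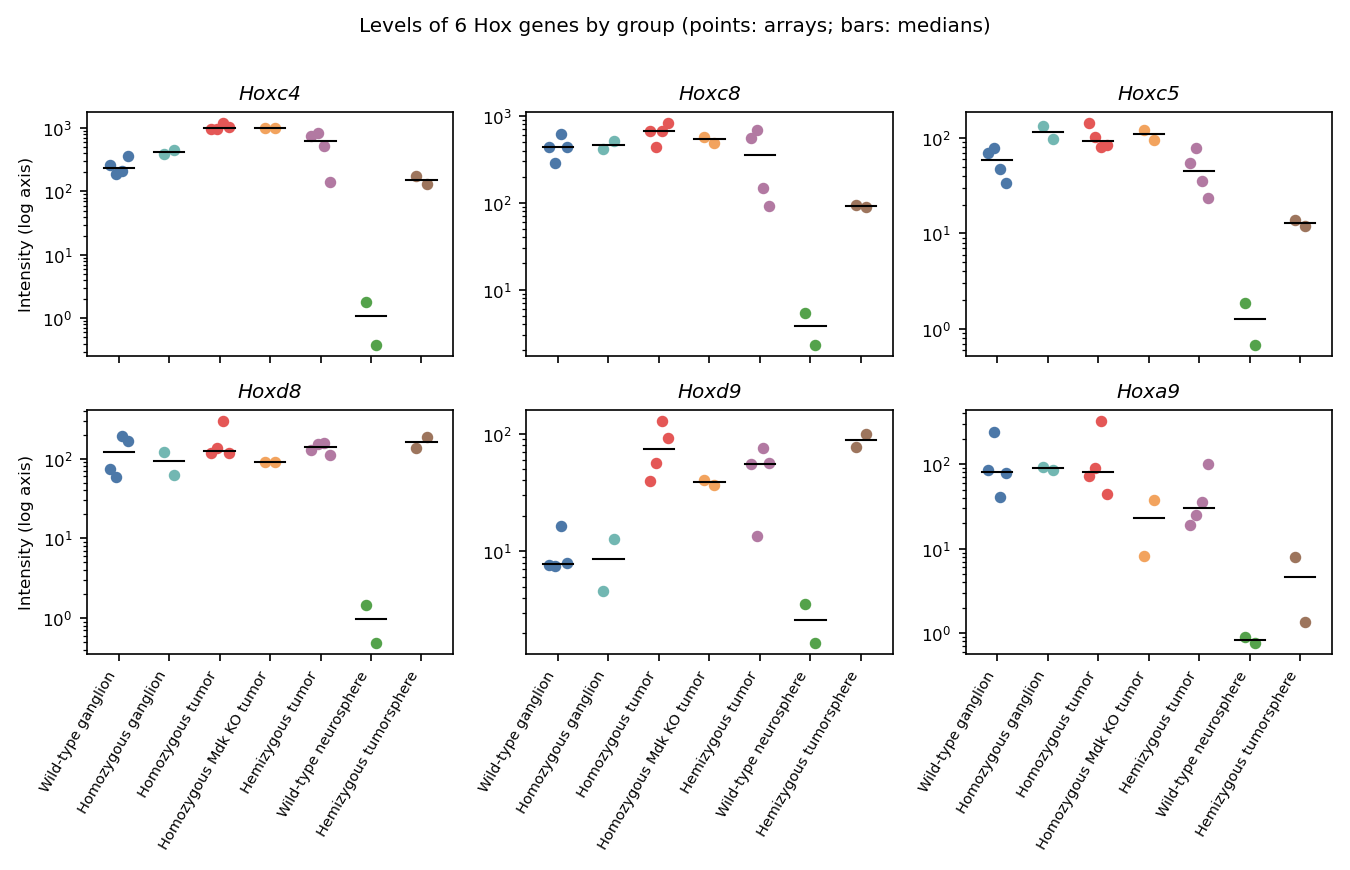
Intensity (log axis) of 6 Hox genes on each of the 20 arrays, by group; points are arrays and bars group medians. Hoxc4 is highest in homozygous and Mdk knockout tumors, Hoxd9 is higher in tumors and tumorspheres than in ganglia, and all 6 genes read at most 5.35 in neurospheres.

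Wild-type ganglia were compared with tumors of homozygous mice to ask how the transgenic tumor differs from the normal tissue of its lineage. Hoxc4, Hoxd9, Hoxc6, Hoxc5 and Hoxd3 were higher in the tumors, and Hoxc10, Hoxb3, Hoxa5 and Hoxb6 were lower. These 9 of 20 tested Hox genes compare with 49.8% of all 15132 genes tested (23.1% higher and 26.6% lower), so the share of Hox genes that changed was near the background (limma, Benjamini-Hochberg adjusted p under 0.05 over all genes tested). The median log2 difference was -0.03 over the Hox genes tested and -0.12 over all genes tested, and both medians are given for each comparison. The difference of Hoxc4 was 2 ± 0.37 (SE, adjusted p = 0.00018), a 4-fold rise, with all 4 tumors above all 4 ganglia. The model used n = 4 and 4 arrays for this contrast, and in a tissue sample fewer cells of a type cannot be told apart from less RNA per cell.

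Hoxd9, a member of paralog group 9 whose relatives mark thoracic levels, was near the floor in ganglia and well above it in most tumors. It read 7.56, 7.46, 16.4 and 7.93 in wild-type ganglia, so that 3 of 4 arrays were below the floor, and 4.55 and 12.7 in homozygous ganglia. In homozygous tumors it read 39.8, 56.5, 127 and 91.9, in Mdk knockout tumors 40.6 and 36.4, in hemizygous tumors 54.6, 13.5, 74.9 and 56.3, and in tumorspheres 77.6 and 100. Every tumor but hemizygous tumor 2 and both tumorspheres lay above every ganglion. On the log2 scale Hoxd9 rose by 1.80 ± 0.31 (adjusted p = 9e-05) in homozygous tumors. Hoxd3, a gene of the same cluster that patterns neck vertebrae, was 7.37, 13.4, 16 and 20.9 in wild-type ganglia and 22.9, 19, 55.7 and 29.3 in homozygous tumors. These values overlapped, and the difference of 0.61 ± 0.21 had an adjusted p of 0.023, which became 0.11 without homozygous tumor 3 and 0.075 without wild-type ganglion 1.

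Hoxc5 and Hoxc6, both expressed at neck and forelimb levels of the embryo, moved with Hoxc4 in these tumors but by less. Hoxc6 was 41.5, 43.8, 46.2 and 25.9 in wild-type ganglia and 104, 68.1, 67.3 and 83.2 in homozygous tumors, without overlap (0.80 ± 0.23, adjusted p = 0.0071). Its other probe sets overlapped: 1 read 31.1 to 64.6 in the ganglia and 59.4 to 101 in the tumors. The other read 10.6 to 25.8 in the ganglia and 7.06 to 22.7 in the tumors, without a rise. The Hoxc6 call held with the mean of all its probe sets. Hoxc5 was 68.7, 78.8, 47.5 and 33.7 in the ganglia and 142, 101, 80.2 and 84.8 in the tumors (0.71 ± 0.25, adjusted p = 0.026). The Hoxc5 ranges were apart by little, and its adjusted p was over 0.05 without any 1 of homozygous tumors 1 and 2 and wild-type ganglia 3 and 4 (0.051 to 0.096). With the mean of all its probe sets the Hoxc5 difference was 0.26 (adjusted p = 0.13), and with quantile normalization its adjusted p was 0.083. Of the genes that were lower, Hoxc10, a gene of lumbar levels, was 21, 11.5, 28.2 and 21 in wild-type ganglia and below the floor in all 4 homozygous tumors at 3.71, 4.27, 1.22 and 2.14. Its fitted difference was -0.93 ± 0.18 (adjusted p = 0.00036), and with each tumor array set to its floor the ganglia were at least 1.76-fold higher. Hoxb3, a hindbrain gene, was 32.6, 49.8, 24 and 30.6 in those ganglia and 13.5, 10.5, 4.93 and 13.5 in the tumors (-0.91 ± 0.19, adjusted p = 0.00056). Its other, dimmer probe set overlapped, at 6.63 to 22.4 in the ganglia and 2.76 to 15.5 in the tumors. The call held with the mean of both.

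Hoxa5, which patterns the neck and the lung among other organs, stayed above the higher mark on all 20 arrays by its chosen probe set. It read 209, 273, 262 and 159 in wild-type ganglia and 97.9, 104, 162 and 163 in homozygous tumors (-0.71 ± 0.21, adjusted p = 0.0086), with overlap. Its other probe set disagreed: it read 0.73 to 49.4 over the arrays, and with the mean of both probe sets the difference of Hoxa5 was -0.23 with an adjusted p of 0.32. Hoxb6 had the smallest change, -0.45 ± 0.18 (adjusted p = 0.043). All 4 homozygous tumors and 2 of 4 ganglia were below the floor for Hoxb6, and leaving out any 1 of wild-type ganglia 2 and 3 or of homozygous tumors 1, 3 and 4 raised its adjusted p to between 0.056 and 0.15. Without the 6 arrays with an intensity of the muscle actin Acta1 over 100, Hoxa5 (-0.52) and Hoxd3 (0.55) lost their calls in this comparison. Glial and fibroblast marker levels and the actin ratio, given above, also differed between ganglia and tumors, and their part in the Hox differences was not tested.

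The tumors of hemizygous mice were compared with these 4 ganglia in the same way. Hoxd9 was higher and Hoxa5, Hoxb3, Hoxc10 and Hoxa2 were lower, 5 of 20 tested Hox genes against 52.6% of all genes (27% higher and 25.6% lower). The medians were -0.23 over the Hox genes and -0.05 over all genes. Hoxd9 rose by 1.25 ± 0.31 (limma adjusted p = 0.0021), although hemizygous tumor 2, at 13.5, was below ganglion 3, at 16.4. Hoxa5 was 145, 137, 97.9 and 86.2 in these tumors, all below the lowest ganglion at 159 (-0.87 ± 0.21, adjusted p = 0.0019). Its other probe set overlapped, at 4.74 to 22.1 in these tumors and 10.3 to 39.4 in the ganglia. The Hoxa5 call held with the mean of both. Hoxb3 was 10.2, 13, 9.37 and 23.3 in these tumors, without overlap by its chosen probe set (-0.74 ± 0.19, adjusted p = 0.0026). The other Hoxb3 probe set read 3.31 to 14.3 in these tumors and overlapped the ganglia, at 6.63 to 22.4. Hoxc10 was 5.96, 3.89, 9.29 and 14.1, and the last of these exceeded wild-type ganglion 2 (-0.58 ± 0.18, adjusted p = 0.012). Hoxa2, a gene of the branchial arches, was below the floor on all 8 arrays, so that its difference of -0.38 ± 0.13 (adjusted p = 0.024) compares background-level signals. Hoxc4 missed the threshold here (0.87, adjusted p = 0.055), with tumors 1 to 3 above and tumor 4 below the ganglia. Without hemizygous tumor 4, 8 Hox genes passed in place of 5. 2 passed when the 6 arrays with an intensity of the muscle actin Acta1 over 100 were left out, and the adjusted p was then 0.073 for Hoxd9, 0.055 for Hoxa5 and 0.11 for Hoxb3.

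**Figure D3:**
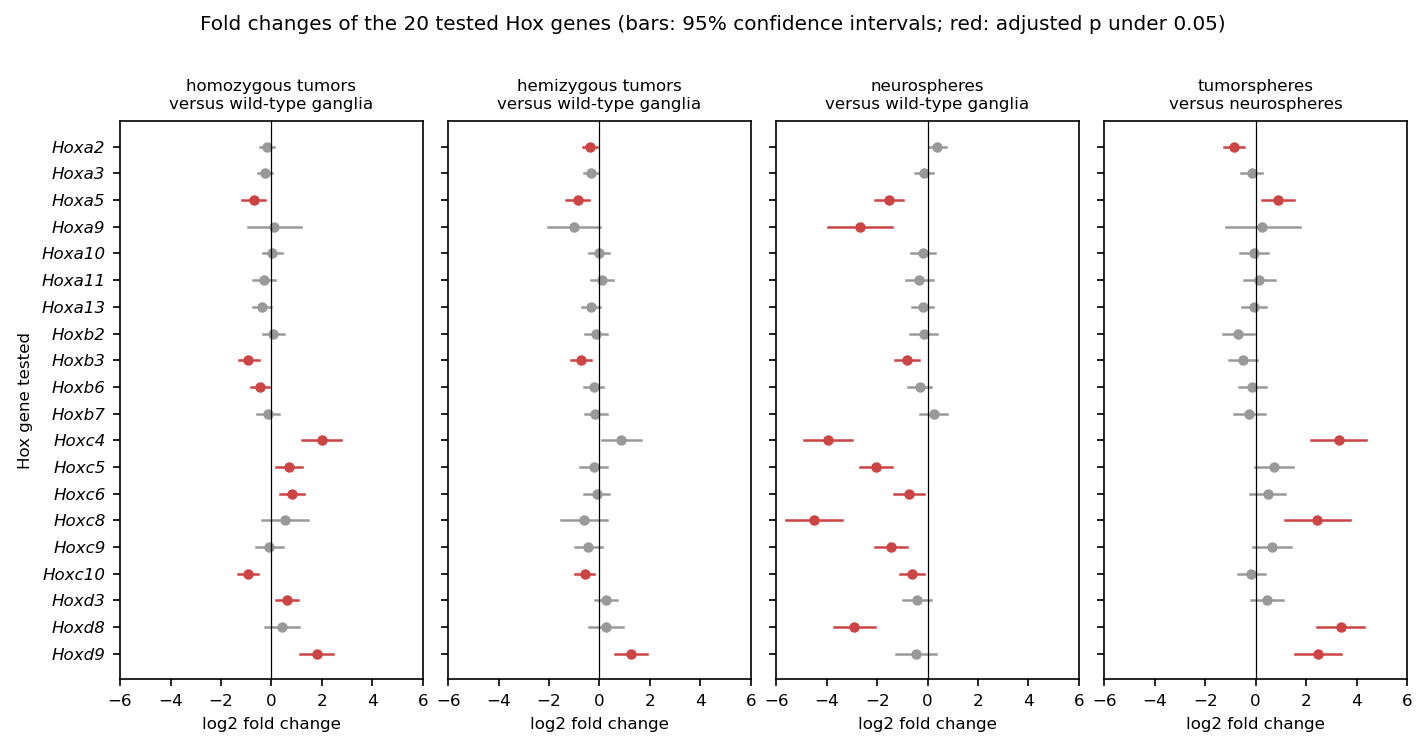
Log2 fold change (points) with 95% confidence interval (bars) of the 20 tested Hox genes in 4 comparisons of the limma model; red marks an adjusted p under 0.05 over all genes tested. Hoxc4 and Hoxd9 are the largest rises in homozygous tumors, and all 6 tested Hoxc genes are lower in neurospheres than in wild-type ganglia.

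The 2 tumor genotypes were then compared with each other. Hoxc5 and Hoxc6 were lower in hemizygous than in homozygous tumors, 2 of 20 tested Hox genes against 6.21% of all genes (3.46% higher and 2.74% lower), and no Hox gene was higher. The median was -0.17 over the Hox genes against 0.06 over all genes, and -0.93 over the 6 tested Hoxc genes. Hoxc5 was 53.9, 77.8, 35.4 and 23.4 in hemizygous tumors, all below the homozygous minimum of 80.2 (-0.94 ± 0.25, limma adjusted p = 0.033). Hoxc6 was 48.3, 55, 20.6 and 23, all below the homozygous minimum of 67.3 (-0.92 ± 0.23, adjusted p = 0.023). Of its other probe sets, 1 also did not overlap, at 27.3 to 59.1 against 59.4 to 101 in homozygous tumors. The other overlapped, at 6.37 to 14 against 7.06 to 22.7. The other, dimmer Hoxc5 probe sets overlapped too. Neither call held when hemizygous tumor 3, hemizygous tumor 4 or homozygous tumor 1 was left out: no Hox gene then passed. 1 passed without homozygous tumor 2 or 4, and 4 passed without hemizygous tumor 2. Hoxa9, which is linked to leukemia and to thoracic and lumbar identity, overlapped between the genotypes: it was 73.3, 89.3, 321 and 44.9 in homozygous tumors, 8.16 and 38 in Mdk knockout tumors, 18.9, 25.2, 35.4 and 101 in hemizygous tumors and 84.3, 242, 40.6 and 77.6 in wild-type ganglia.

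Ganglia of homozygous mice were compared with those of wild-type mice, the transgenic and the normal form of one labelled tissue. None of the 20 tested Hox genes passed in limma, against 5.01% of all genes (3.99% higher and 1.02% lower); 4 had an unadjusted p under 0.05, as did 21.4% of all genes. Over the Hox genes the median was -0.10, and over all genes -0.03. The Hox gene with the smallest p was Hoxc5, at 132 and 96.2 in the homozygous ganglia, both above all wild-type ganglia (0.86 ± 0.31, 95% interval 0.21 to 1.51, adjusted p = 0.12). Its other, dimmer probe sets overlapped, at 1.9 and 2.56 against 2.42 to 24.5 and at 7.21 and 1.33 against 0.676 to 8. Hoxc4 in the homozygous ganglia, 390 and 457, also lay above all wild-type ganglia (0.74 ± 0.45, interval -0.20 to 1.68, adjusted p = 0.35). 1 Hox gene passed without wild-type ganglion 2.

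Tumors of homozygous mice were also set against ganglia of the same genotype, which removes the difference in transgene dose. Hoxd9 (1.87 ± 0.37, limma adjusted p = 0.0019) and Hoxd3 (0.97 ± 0.26, adjusted p = 0.013) were higher, 2 of 20 tested against 21.6% of all genes (9.35% higher and 12.3% lower), and none was lower. Median differences were -0.06 (Hox genes) and -0.03 (all genes). Hoxd3 read 7.84 and 7.12 in the homozygous ganglia, below the floor, and the tumors were at least 2.5-fold higher with the ganglia set to their floor. No tumor overlapped these 2 ganglia in either gene. The Hoxd3 call was lost when either homozygous ganglion was left out (adjusted p = 0.082 and 0.12), which left 1 Hox gene called, Hoxd9. The 2 comparisons of homozygous tumors share the tumor arrays, so their common genes are not separate evidence.

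Loss of Mdk was compared within homozygous tumors. No Hox gene passed in limma, where the gene Mdk alone did among all genes (0.00661%); 3 Hox genes had an unadjusted p under 0.05, as did 1.32% of all genes. Median differences were -0.18 (Hox genes) and 0 (all genes). The smallest p belonged to Hoxa5, at 62.6 and 63.3 in the knockout tumors, below all 4 homozygous tumors (-0.87 ± 0.26, interval -1.41 to -0.33, adjusted p = 1). Hoxa9 (-1.71, interval -2.98 to -0.43) and Hoxd3 (-0.58, interval -1.12 to -0.03) were the others, both with an adjusted p of 1. By its other probe set Hoxa5 overlapped, at 14.2 and 25.1 in the knockout tumors and 10.4 to 49.4 in the homozygous tumors. Hoxc4, at 1010 on both knockout arrays, lay within the range of the homozygous tumors (-0.04, interval -0.98 to 0.90).

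Neurospheres were compared with wild-type ganglia, as the cultured and the dissected wild-type samples of the design. All 6 tested Hoxc genes, 2 of 7 Hoxa (Hoxa5, Hoxa9), 1 of 4 Hoxb (Hoxb3) and 1 of 3 Hoxd (Hoxd8) were lower in neurospheres and none was higher. These 10 of 20 compare with 22.4% of all genes that were lower, 16.8% that were higher and 39.2% in either direction. By position, 6 of 8 tested genes of paralog groups 4 to 8 were lower, 3 of 7 of groups 9 to 13 and 1 of 5 of groups 1 to 3. Median differences were -0.55 over the Hox genes, -1.75 over the Hoxc genes, -1.78 over paralog groups 4 to 8 and -0.12 over all genes. Hoxc8 differed by -4.50 ± 0.53 (limma adjusted p = 2.3e-06), Hoxc4 by -3.94 ± 0.45 (adjusted p = 1.4e-06), Hoxd8 by -2.91 ± 0.39 (adjusted p = 8.7e-06) and Hoxa9 by -2.68 ± 0.61 (adjusted p = 0.0017). The chosen probe sets of these 4 were below the floor in neurospheres, so the folds are bounds: with each neurosphere array set to its floor, ganglia were at least 39.8-fold higher for Hoxc8, 22.8-fold for Hoxc4, 10.2-fold for Hoxd8 and 8.3-fold for Hoxa9. The bound for Hoxa9 holds for that probe set alone, since the other read 5.67 and 12.9 in neurospheres, the latter above the floor of 8.58, and 15.8 to 37.7 in wild-type ganglia. With the mean of both probe sets Hoxa9 differed by -1.71 (adjusted p = 0.0017).

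The other 6 genes that were lower in neurospheres changed by less. Hoxc5 (-2.04 ± 0.31, limma adjusted p = 3.6e-05) and Hoxc9 (-1.45 ± 0.31, adjusted p = 0.001) were below the floor on both neurosphere arrays, and ganglia were at least 5.03-fold and 3.92-fold higher. The Hoxc5 bound holds for the chosen probe set alone. Its others overlapped the ganglia, at 10.4 and 1.69 against 2.42 to 24.5 and at 9.76 and 0.742 against 0.676 to 8. With the mean of all its probe sets the Hoxc5 call held. Hoxc9, a gene of thoracic levels, read 44.7, 61.7, 22.3 and 52.1 in wild-type ganglia and 11.3 and 1.14 in neurospheres. By the chosen probe sets, Hoxa5 was the only one of the 10 above the floor in both neurospheres, at 76.1 and 57.2. There it lay below all ganglia (-1.53 ± 0.26, limma adjusted p = 0.00011). The other Hoxa5 probe set was below the floor in both neurospheres, at 10.4 and 7.82, and read 10.3 to 39.4 in wild-type ganglia. Hoxc6 (-0.75, adjusted p = 0.04) and Hoxc10 (-0.63, adjusted p = 0.033) overlapped between the groups by their chosen probe sets. The other Hoxc6 probe sets did not overlap, at 4.4 and 13.9 against 31.1 to 64.6 and at 1.87 and 4.68 against 10.6 to 25.8 in wild-type ganglia. Without neurosphere 2 the adjusted p rose to 0.47 for Hoxc6, 0.37 for Hoxc10 and 0.057 for Hoxb3, and leaving out neurosphere 2 left 7 Hox genes called. Neurosphere 2 was the array with the Gapdh ratio of 11.5, whose part in these values was not tested. For Hoxc6 the same happened without wild-type ganglion 1, 2 or 3 (0.068 to 0.074), and for Hoxc10 without ganglion 1 or 3 (0.054 and 0.073). With the mean of both Hoxb3 probe sets the limma adjusted p of Hoxb3 was 0.051. Hoxa2, a gene of the head end of the axis, read 16.4 and 12.6 in neurospheres, the only 2 arrays of the series on which it exceeded the floor. Hoxa2 entered the test through these arrays alone, so its values are given without a test against them; its call against ganglia changed with the normalization. Sympathetic markers were lower in neurospheres for all 11 tested genes, and fibroblast markers for all 8, where 22.4% of all genes were lower. The summed liver marker level was 7020 in neurosphere 1, 11.6 in neurosphere 2 and 74.1 to 4430 in wild-type ganglia. In neurosphere 1 Ttr alone read 7010, and the other liver markers, Alb and Apoa1, were below the floor on both neurosphere arrays. The part of these cell type differences in the Hox values was not tested.

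Tumorspheres were set against the hemizygous tumors, the cultured and the dissected form of the same genotype. Hoxc4 and Hoxc5 were lower in tumorspheres and no Hox gene was higher, 2 of 20 tested against 12.6% of all genes (5.61% higher and 6.99% lower). The medians were -0.22 over the Hox genes and 0.01 over all genes. Median centring moved the median of all genes by 0.11 here and in the comparison of neurospheres with ganglia, turned the share of calls that were higher here from 44.5% to 57.8%, and left no Hox gene called here. Hoxc5 read 13.7 and 12 in tumorspheres, below all 4 hemizygous tumors (-1.07 ± 0.31, limma adjusted p = 0.029). Hoxc4, at 176 and 130, overlapped the tumors through hemizygous tumor 4 at 139 (-1.51 ± 0.45, adjusted p = 0.032). Neither held without hemizygous tumor 1, hemizygous tumor 2, tumorsphere 1 or tumorsphere 2 (adjusted p of 0.093 to 0.26 for Hoxc4 and 0.073 to 0.19 for Hoxc5), and Hoxc4 was also lost without hemizygous tumor 3 (0.054). Hoxc5 was also lost with quantile normalization and with the mean of its probe sets. Hoxd8 (0.21, interval -0.60 to 1.02) and Hoxd9 (0.78, interval -0.01 to 1.57) did not pass. Fibroblast markers summed to 496 and 800 in tumorspheres and 2600 to 6860 in the tumors, and the part of that difference was not tested.

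The 2 kinds of culture were then compared. Hoxd8, Hoxc4, Hoxd9, Hoxc8 and Hoxa5 were higher in tumorspheres and Hoxa2 was lower, 6 of 20 tested against 38.4% of all genes (23.5% higher and 14.9% lower). The medians were 0.21 over the Hox genes and 0.11 over all genes. Hoxd8 differed by 3.38 ± 0.45 (limma adjusted p = 1.1e-05), Hoxc4 by 3.29 ± 0.52 (adjusted p = 6.9e-05), Hoxd9 by 2.49 ± 0.43 (adjusted p = 0.00018) and Hoxc8 by 2.45 ± 0.62 (adjusted p = 0.0041). With neurospheres set to their floor, tumorspheres were at least 14.8-fold higher for Hoxd8, 14-fold for Hoxc4, 8.18-fold for Hoxd9 and 8.52-fold for Hoxc8. The Hoxc8 call was lost with a pseudocount of 64 (adjusted p = 0.10).

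Hoxa5 and Hoxa2 made up the rest of that comparison. Hoxa5 was 123 and 149 in tumorspheres (0.88 ± 0.30, limma adjusted p = 0.024), and its call was lost without either tumorsphere or neurosphere 2 (0.053 to 0.14). Its other probe set went the other way, at 4.37 and 0.73 in tumorspheres and 10.4 and 7.82 in neurospheres, all below the floor. With the mean of its probe sets the adjusted p of Hoxa5 was 0.55. Hoxa2 was 0.816 and 0.866 in tumorspheres, below the floor, against 16.4 and 12.6 in neurospheres, through which alone it entered the test, so its place among the 6 supports nothing. Hoxc5, Hoxc6 and Hoxc9, which were lower in neurospheres than in ganglia, did not pass between the cultures: Hoxc6 read 27.9 and 30.4 in tumorspheres and 27.1 and 8.44 in neurospheres. Another Hoxc6 probe set read 31.6 and 35.7 against 4.4 and 13.9, and a further one 1.89 and 9.53 against 1.87 and 4.68. Hoxa9 read 7.9 and 1.34 in tumorspheres and 0.903 and 0.761 in neurospheres by its chosen probe set, below the floor on all 4 arrays, whereas its other probe set exceeded the floor in tumorsphere 1, at 18.2, and in neurosphere 2, at 12.9.

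Whether tumor and normal samples differed by another amount in culture than in tissue was tested as a contrast of contrasts: tumorspheres minus neurospheres, less hemizygous tumors minus wild-type ganglia. Hoxd8 (3.12 ± 0.55, limma adjusted p = 0.00025), Hoxc8 (3.07 ± 0.75, adjusted p = 0.0041), Hoxc4 (2.43 ± 0.63, adjusted p = 0.0064) and Hoxa5 (1.75 ± 0.36, adjusted p = 0.0011) passed, 4 of 20 against 32.5% of all genes (17.8% higher and 14.7% lower). Median values were 0.34 (Hox genes) and 0.13 (all genes). All 4 belong to paralog groups 4 to 8, of which 8 genes were tested. For Hoxd8 and Hoxc8 hemizygous tumors and wild-type ganglia overlapped in tissue, whereas the neurospheres lay below the floor. Neurospheres and wild-type ganglia also differed in cell type markers, with sympathetic sums of 82.8 and 110 against 17300 to 36100. Culture and cell type thus cannot be told apart in this contrast. With a pseudocount of 64 the adjusted p was 0.24 for Hoxc4 and 0.068 for Hoxc8, and with the mean of its probe sets that of Hoxa5 was 0.056.

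Genes of the proteins that bind DNA together with Hox proteins were examined next. Of 7 tested cofactor genes, 3 were higher and none lower in homozygous tumors than in wild-type ganglia, and likewise in hemizygous tumors, where 23.1% and 27% of all genes were higher and 49.8% and 52.6% changed in either direction. Meis2, a homeodomain cofactor also active in neural crest, read 39.7, 53.5, 44 and 28.7 in wild-type ganglia and 561 and 480 in homozygous ganglia. Meis2 was 1620, 1540, 1670 and 1010 in homozygous tumors and 278, 211, 549 and 266 in hemizygous tumors, with no overlap among these 4 groups except that hemizygous tumor 3 lay within the homozygous ganglia. Its log2 difference from wild-type ganglia was 4.67 ± 0.34 in homozygous tumors (limma adjusted p = 3.8e-09), 2.50 ± 0.34 in hemizygous tumors (adjusted p = 5.4e-06) and 3.24 ± 0.41 in homozygous ganglia (adjusted p = 4.6e-05), where no Hox gene passed. Meis2 was lower in hemizygous than in homozygous tumors (-2.17 ± 0.34, adjusted p = 0.00091), the same direction as Hoxc5 and Hoxc6. These comparisons share their control arrays.

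The other cofactors that rose were Pbx3 and Pknox1. Pbx3 was 74.2 to 131 in wild-type ganglia, 497 to 670 in homozygous tumors and 545 to 1000 in hemizygous tumors (2.24 ± 0.22 and 2.78 ± 0.22, limma adjusted p = 1.5e-07 and 7.9e-09). Pknox1 was 7.46 to 67.4 in those ganglia and 161 to 229 in both kinds of tumor (2.20 ± 0.31 and 2.02 ± 0.31). In neurospheres, where most Hox genes were low, Meis2 was 1920 and 1280 (4.81 ± 0.41 against wild-type ganglia, adjusted p = 3.8e-08). Tumorspheres had 371 and 83.4 for Meis2, below both neurospheres (-3.02 ± 0.47, adjusted p = 6.7e-05). Hoxc4, Hoxc8 and Hoxd8 differed the other way between these cultures.

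Regional factors of the head and brain were compared as the counterpart of the trunk code. Of 20 tested, 5 (Otx1, Otx2, Lhx2, En2 and Irx2) exceeded the floor only on the 2 neurosphere arrays and so entered the test through them. They are described by their values: Lhx2, a forebrain and eye factor, read 135 and 93.6 in neurospheres and at most 2.97 on the other 18 arrays, and Otx2, a forebrain and midbrain factor, read 60.4 and 53.8 there and at most 6.67 elsewhere. Of the other 15, 6 were higher and none lower in neurospheres than in wild-type ganglia, against 16.8% of all genes higher and 22.4% lower. Dmrta2, a cortical progenitor factor, read 222 and 214 in neurospheres and at most 17 elsewhere (3.41 ± 0.20, limma adjusted p = 3.4e-10). Tumorspheres were lower than neurospheres in 7 of those 15 and higher in 1, against 14.9% and 23.5% of all genes. Some members of the list were thus not confined to neurospheres. Six6 read 80.2 and 114 in tumorspheres and 305 in hemizygous tumor 4, against 0.549 and 6.04 in neurospheres. Emx2 read 204 and 135 in tumorspheres, 105 and 146 in neurospheres and 1.27 to 9.74 in wild-type ganglia. Over all 20, 2 were higher and 3 lower in homozygous tumors than in wild-type ganglia (49.8% of all genes in either direction), and 3 and 3 in hemizygous tumors (52.6%).

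**Figure D4:**
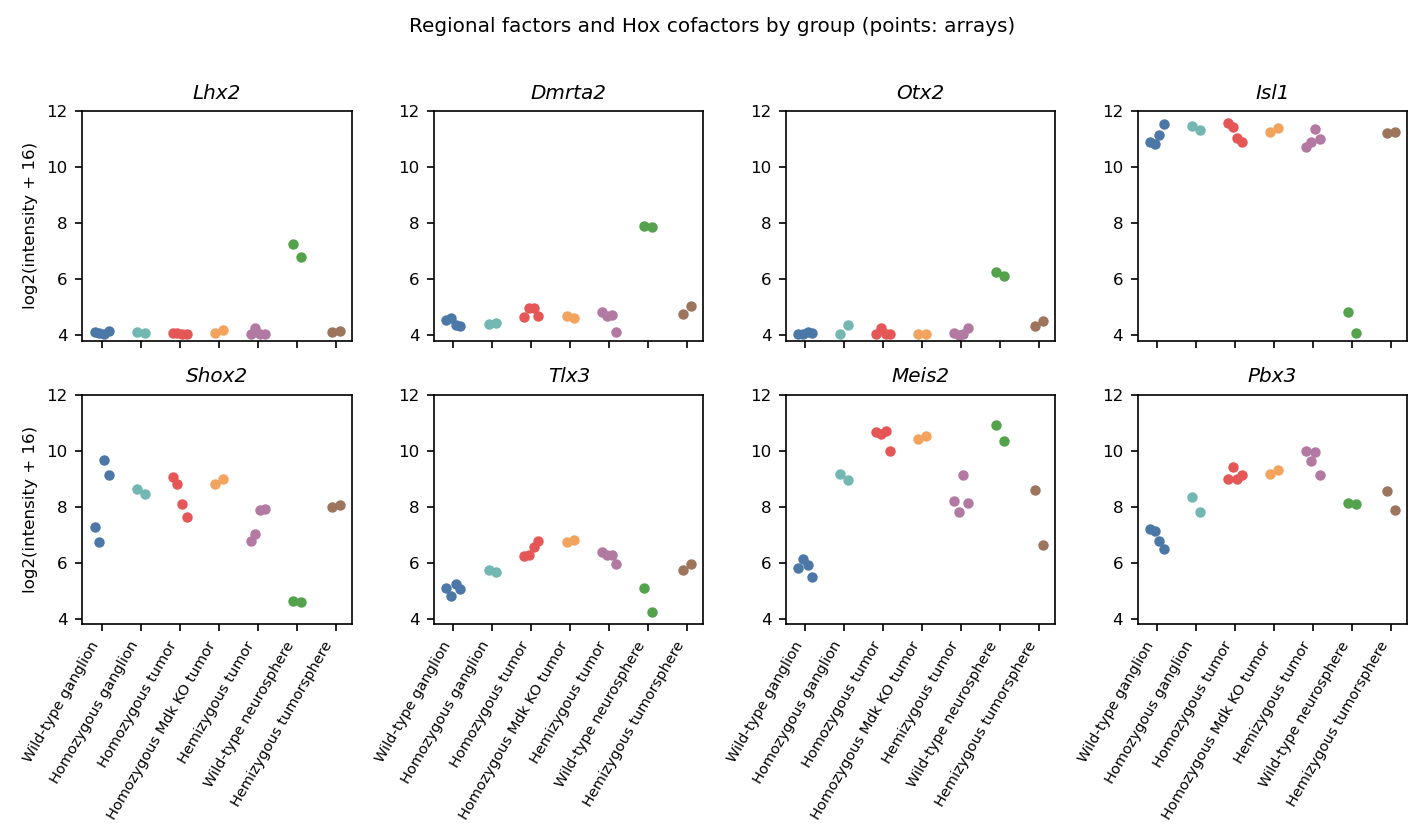
Points give log2(intensity + 16) of 8 regional factors and Hox cofactors on each of the 20 arrays, by group. Lhx2, Dmrta2 and Otx2 stand out only in neurospheres, Isl1 and Shox2 are high everywhere but there, and Meis2 and Pbx3 are higher in tumors than in wild-type ganglia. The head and brain factors Six6 and Emx2, not plotted, were not confined to neurospheres.

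Other factors that mark position or subtype along the trunk were also compared. 3 of 6 tested were lower in neurospheres than in wild-type ganglia, against 22.4% of all genes, and 5 of 6 were higher in tumorspheres than in neurospheres, against 23.5%. Isl1, which specifies sympathetic, sensory and motor neurons, read 1660 to 3010 on the 18 other arrays and 12.1 and 0.727 in neurospheres (-6.66 ± 0.26 against wild-type ganglia, limma adjusted p = 1.8e-12). Shox2 read 8.65 and 8.29 in neurospheres (-3.59 ± 0.61, adjusted p = 0.00012), and its ganglia spread from 90 to 806. Tlx3, a factor of sensory neurons, was higher in both homozygous and hemizygous tumors than in wild-type ganglia (1.42 ± 0.18 and 1.18 ± 0.18, adjusted p = 4.9e-06 and 2.9e-05).

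Further lists held genes that act on the clusters or lie beside them. Of 25 tested Polycomb and trithorax genes, whose proteins keep Hox clusters silent or active, 18 were higher and 1 lower in homozygous tumors than in wild-type ganglia, 19 and 1 in hemizygous tumors and 10 and 1 in neurospheres. Over all genes, 23.1%, 27% and 16.8% were higher in these comparisons and 49.8%, 52.6% and 39.2% changed in either direction, so that the 11 of 25 that changed in neurospheres are near the background. The list medians were 0.91, 1.03 and 0.56, against -0.12, -0.05 and -0.12 over all genes. Ezh2, the methyltransferase of Polycomb complex PRC2, read 124 to 162 in wild-type ganglia, 454 and 596 in homozygous ganglia and 1010 to 1550 elsewhere, neurospheres included (2.98 ± 0.15 in homozygous tumors, limma adjusted p = 1.1e-10). Between tumorspheres and neurospheres Ezh2 differed by -0.14 ± 0.21 (adjusted p = 0.66).

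Retinoic acid is the classic inducer of the clusters from their low-numbered end. Of 16 tested caudal and retinoic acid genes, 1 was higher and 6 lower in homozygous tumors than in wild-type ganglia, 7 of 16 against 49.8% of all genes. The carrier Crabp1 read 57.2 to 321 in those ganglia and 3.37 to 12 in homozygous tumors (-3.10 ± 0.36, limma adjusted p = 1.4e-06). Rarb, a retinoic acid receptor, was higher in tumorspheres than in hemizygous tumors (2.03 ± 0.38, adjusted p = 0.0016), where Hoxc4 and Hoxc5 were lower. Of 14 tested genes that flank the clusters, 3 were higher and 5 lower in homozygous tumors than in wild-type ganglia, 8 of 14 against the same 49.8%. Skap2, which lies beside the Hoxa cluster and encodes a cytoskeletal adaptor, read 1050 and 745 in neurospheres and 11.5 and 5.82 in tumorspheres (-5.20 ± 0.33 for tumorspheres against neurospheres, adjusted p = 1.5e-09). The chosen probe set of Hoxa5 went the opposite way, but the other Hoxa5 probe set was lower in tumorspheres, as was Skap2. Cbx5 and Hnrnpa1, which lie beside the Hoxc cluster, rose in homozygous tumors (1.61 ± 0.19 and 1.66 ± 0.26), as did Hoxc4, Hoxc5 and Hoxc6, and also in neurospheres (1.65 ± 0.24 and 1.96 ± 0.32), where all 6 tested Hoxc genes were lower.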

How the data were processed

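RNA of 20 samples in 7 groups was hybridised to Affymetrix whole-genome mouse arrays, 1 array a sample. Tissue was frozen and 40 ng of total RNA was amplified in a two-cycle protocol, per the labels' protocols. The authors deposited 1 linear intensity per probe set and array. The software and its settings are not given in the sources used here. The deposited intensity values have a 2% trimmed mean of 100 on every array, as a scaling of each array to 1 common level would leave.

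Of 45101 probe sets, 64 controls were left out. Of the rest, 34945 had 1 gene symbol in the platform annotation, 932 had several and 9160 were unlisted; 34741 symbols were updated by gene identifier and 204 kept. Each of 18193 genes was read by the probe set whose mean log2(intensity + 16) was highest, computed here from the deposited intensity; 11 Hox genes had several probe sets, and 3 probe sets that name several Hox genes were left out. No further normalization was applied, because the array medians spanned 0.33 log2, under the limit of 0.5 set for it. The 15132 genes above the 40th percentile on at least 2 arrays were fitted with limma 3.58.1 (R 4.3.3) as 7 group means (13 residual degrees of freedom). Tests were two-sided with Benjamini-Hochberg adjustment over all genes tested. Fold changes are on the log2(intensity + 16) scale, which understates changes of dim genes. The fit was tested on simulated data. Tables and plots used Python 3.11.15, pandas 2.3.3, numpy 2.4.6 and matplotlib 3.10.9.

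The members, gene lists and tests were chosen with earlier results of these data known. All Hox genes could be named; among those that passed in a comparison, the 4 largest rises and the 4 largest falls were given with full values. Of the other lists the 3 members with the smallest unadjusted p per comparison could be named, as could Mdk. A gene named by this rule in 1 comparison is also given in others. Six6 and Emx2 were named besides, because their levels were not confined to neurospheres. "At least" folds set the mean of the higher group against the lower group with each array raised to its floor.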

Additional observations from a re-analysis of the deposited data

Results flagged for a closer look

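In homozygous tumor 3 the intensity of Hoxa7 was 62.5, while the other 19 arrays read 0.56 to 3.67; it was set apart because this array lay far from the other 3 of its group. On the same array Hoxd8 read 294, against 117 to 135 in the other homozygous tumors, and was set apart for the same reason. Hoxa9 (321), Hoxd9 (127) and Hoxd3 (55.7) also had their highest values of the series on that array. In wild-type ganglion 3 Hoxd9 read 16.4, far from the 7.46 to 7.93 of the other 3 ganglia. In all, 50 sets of 4 arrays were examined for such a value (gap over range above 0.829) and 3 were found; chance gives about 1 in 20.

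For 4 Hox genes the difference between tumor and normal samples was shifted upward in culture relative to tissue by limma's test of that difference: Hoxd8 by 3.12, Hoxc8 by 3.07, Hoxc4 by 2.43 and Hoxa5 by 1.75 on the log2 scale. Culture and cell type cannot be told apart here, since neurospheres and ganglia also differed in cell type markers.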

How the results depend on the processing

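The intensities carry no detection calls, and a signal under the floor is only a bound. The number of arrays, 2 in 4 of the 7 groups, limits the precision. Over 40 Hox gene results, 784 values under other settings gave 675 that kept their call, 109 that lost it and 0 that changed direction, and 18 of the 40 passed under all. Leaving out arrays by replicate number or by Acta1 level was chosen after seeing the data. The cause of a change under another setting was not tested.

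Counts of Hox genes called moved by over 1.5 times as follows. Tumorspheres against hemizygous tumors (2) gave 1 with quantile normalization, 0 with median centring, 4 with a pseudocount of 1, 1 with 64, 1 with the mean of all probe sets, 0 with only the arrays compared, 4 with replicates 1 and 2 of the groups of 4, 1 with replicates 3 and 4, and 1 without the arrays with Acta1 over 100. Hemizygous against homozygous tumors (2) gave 0 with a pseudocount of 1, 0 with replicates 1 and 2, 4 with replicates 3 and 4, and 0 without the Acta1 arrays. The contrast of culture and tissue (4) gave 8 with a pseudocount of 1, 2 with 64 and 7 with replicates 1 and 2. Hemizygous tumors against wild-type ganglia (5) gave 9 with no filter, 3 with a filter at the 60th percentile, 8 with replicates 1 and 2, 3 with replicates 3 and 4, and 2 without the Acta1 arrays. Homozygous tumors against homozygous ganglia (2) gave 4 with only the arrays compared and 4 with replicates 3 and 4. Homozygous against wild-type ganglia (0) gave 1 with replicates 1 and 2, 3 with replicates 3 and 4, and 1 without the Acta1 arrays.

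Without any 1 array the counts ran from 7 to 9 (homozygous tumors against wild-type ganglia), 4 to 8 (hemizygous tumors against them), 0 to 1 (homozygous ganglia against them), 1 to 2 (homozygous tumors against homozygous ganglia), 0 to 4 (hemizygous against homozygous tumors), 0 to 0 (Mdk knockout), 7 to 10 (neurospheres against wild-type ganglia), 0 to 3 (tumorspheres against hemizygous tumors), 5 to 6 (tumorspheres against neurospheres) and 4 to 5 (culture against tissue).

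Same-numbered arrays were not taken as pairs, since their deviations did not correlate above 0.1 in every pair: correlations were 0.07 to 0.25 in homozygous tumors against wild-type ganglia, and -0.27 to -0.03 and -0.31 to -0.13 in the other comparisons of groups of 4. With the replicate number as a block the counts were 9, 5, 0, 2, 2, 0, 9, 3, 7 and 7 in the order of the comparisons above.

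With the floor at the 60th percentile the median number of Hox genes above it was 9 in homozygous tumors, 8 in wild-type ganglia, 7 in hemizygous tumors, 8 in homozygous ganglia, 7 in Mdk knockout tumors, 5 in tumorspheres and 1 in neurospheres. Of all genes, 49.9% to 56.2% were above it.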
